A study of Mus musculus with 12 samples.

Results

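The 9 genes described here control how a cell senses, takes up, stores and exports sterols. They are Srebf1 and Srebf2, which encode the SREBP transcription factors, their escort Scap, the retention factors Insig1 and Insig2, the lipoprotein receptor gene Vldlr, the sterol esterification enzymes Soat1 and Soat2, and the exporter Abca1. They were chosen by name, as the sterol sensing, uptake, esterification and efflux genes of the deposited count table, and all 9 were found among its 55487 genes. The cells were B16F10, a mouse melanoma line labelled WT, in 4 groups of 3 libraries each. Each culture spent 24 h in medium taken from bone-marrow-derived macrophages (BMDM) after a 24 h treatment of the macrophages. The macrophages of the M0 group had been kept in plain culture medium. Those of the M1 group had received INF-γ at 20 ng/ml, spelled so in the labels and taken to be interferon gamma, and those of the M2 group had received IL-4 (interleukin-4) at 20 ng/ml. The fourth group is named TAM (tumour-associated macrophage), and its macrophages had received 75% B16F10-conditioned medium. Whether any of the cytokine or B16F10 medium carried over to the melanoma cells is not stated. Nor is it stated that libraries of the same group are separate cultures, so each p-value is relative to a spread among libraries that could be technical.

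SREBPs are made as precursors in the membrane of the endoplasmic reticulum, bound to SCAP. When membrane sterol is low, SCAP carries them to the Golgi, where proteases release the part that enters the nucleus and switches on genes of sterol and fatty acid synthesis. When sterol is plentiful, INSIG proteins hold SCAP back, and oxidised sterols activate the LXR receptors, which switch on Abca1 and other export genes. The VLDL receptor binds triglyceride-rich lipoproteins, and the SOAT enzymes turn surplus cholesterol into esters for storage. Srebf1 gives rise to more than 1 protein form from alternative starts, which counts per gene do not separate.

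Each library held between 15916756 and 20863973 counts, and 14591 genes passed the filter on low counts and were tested. All 11 melanocyte markers, Mitf, Tyr and Pmel among them, were detected, and their summed level moved with the groups. It was 20946 to 21186 CPM (counts scaled to library size) per library in M0 and 14029 to 14536 in M1. In M2 it was 19470 to 19848 and in TAM 14699 to 15540. Of the 11 markers, 9 were called lower in TAM versus M0, where 27.2% of all tested genes were lower. In M1 versus M0, 8 were called lower, where 13.5% of all tested genes were. Of 19 macrophage markers 8 had no count in any library, among them Ptprc, Adgre1, Itgam and Tyrobp, and the list summed to 3.84 to 4.60 CPM in TAM against 5.27 to 7.82 CPM in M0. Of 10 fibroblast and endothelial markers 3 had no count in any library. The list summed to 30.5 to 33.1 CPM in TAM against 18.1 to 25.0 CPM in M0. Most of the sum was Pdgfrb, at a mean of 26.0 CPM in TAM and 18.8 CPM in M0. Vwf was also higher in TAM (5.19 against 1.42 CPM), and Pdgfra was lower (0.732 against 1.53 CPM) but not called. The part of these markers in the results was not tested. M0 replicate 1 stood apart. Across genes its r with each of the other M0 libraries was 0.9499 and 0.9516, and all other pairs within a group had an r of at least 0.9966. The genes behind its counts were shorter, with a mean of 4545 bp of exon weighted by count, where the other libraries had 5817 to 6091 bp. Ribosomal protein genes took 7.96% of its counts and 3.54% to 4.10% of the others'. Results that rest on it are given with and without it.

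In TAM versus M0, 4 of the 9 genes fell (Srebf1, Srebf2, Scap and Insig1) and 3 rose (Vldlr, Soat1 and Soat2), at an adjusted p under 0.05 in edgeR's quasi-likelihood test with Benjamini-Hochberg adjustment. In the same comparison 50.5% of all tested genes were called, 23.3% higher and 27.2% lower. All 9 passed the filter on low counts, Soat2 only through the TAM libraries, so it had to differ. Of the other 8 genes, 4 fell and 2 rose. The fit without M0 replicate 1 called the same 7 genes in the same directions, where 66.7% of all genes were called (33% higher, 33.7% lower). The median log2 change of the 9 was −0.01 and that of all tested genes −0.02. In bulk RNA, fewer cells that express a gene and less of its RNA per cell cannot be told apart.

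Start regions of 4 of the genes are shown first, because the data concern a pathway with known promoter elements. RefSeq windows (GRCm38.p6, the assembly also called mm10) from 250 bases before to 50 bases after each start matched 8 of the 9 genes, in 14 windows, and Soat2 had no entry. Each window was searched on both strands for a sterol regulatory element written as TCACNCCAC, the E-box CACGTG, the NF-Y box CCAAT, the GC box GGGCGG, and the amino acid and stress response element TGATGNAA. No match was found for TCACNCCAC in any of the 8 genes, and 1.44% of all 27025 genes with a window had one. Only this form was searched, and 1 of 15 sterol synthesis enzymes with a window held it. Looser forms of the element were not searched, so the 8 genes may hold them. The E-box was found in 3 of 8 genes (Scap, Insig1 and Abca1) against 8.09% of all genes, the NF-Y box in 6 of 8 against 41.1%, and the GC box in 8 of 8 against 38.2%. The stress response element was found in Vldlr and Insig2, against 4.51% of genes. The 27025 genes had 32851 windows, fewer per gene than the 14 windows of the 8 genes. More windows give a gene more room for a match. The shares also cover genes that did not pass the filter on low counts. A match is a description of letters, not evidence of binding. The first pair of stretches below belongs to Insig1 and Srebf2, which fell together in TAM. They run 5′ to 3′ on the gene's strand from 250 bases before the RefSeq start to the first annotated exon, and capitals mark the E-box, NF-Y box and GC box matches, none of which overlap. Insig1 is at chr5:28071162-28071362 and Srebf2 at chr15:82147019-82147180, both on the plus strand.
Insig1: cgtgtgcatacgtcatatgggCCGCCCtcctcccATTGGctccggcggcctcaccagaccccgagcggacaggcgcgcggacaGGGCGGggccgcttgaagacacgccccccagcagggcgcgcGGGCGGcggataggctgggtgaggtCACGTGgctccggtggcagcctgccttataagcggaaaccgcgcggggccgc
Srebf2: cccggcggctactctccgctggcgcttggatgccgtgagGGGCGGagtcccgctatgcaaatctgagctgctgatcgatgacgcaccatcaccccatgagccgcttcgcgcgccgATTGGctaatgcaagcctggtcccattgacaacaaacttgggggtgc

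The second pair of stretches shows the stress response element in Vldlr, which rose in TAM versus M0, and in Insig2, which was not called there. Each holds 30 bases, with the element in capitals. The Vldlr stretch is at chr19:27216809-27216838 on the plus strand, inside an annotated exon of the gene, and its match reads on the opposite strand, at −200 to −193 relative to the later of the RefSeq starts of Vldlr. The window of the earlier start holds no such match. The Insig2 stretch is at chr1:121328184-121328213 on the minus strand, with the match at −178 to −171 relative to 1 of the RefSeq starts of Insig2. A further match, on the opposite strand, lies at −172 to −165 relative to another start and is not shown.
Vldlr: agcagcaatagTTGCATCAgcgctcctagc
Insig2: ctctcgagagcTGATGCAAagagctgcctt

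Srebf2, whose product SREBP-2 mainly drives cholesterol synthesis, lies on chromosome 15 (82147181 to 82205379, plus strand, mm10). Its level was 312.8, 343.1 and 349.3 CPM in the M0 libraries and 88.7, 94.0 and 87.6 CPM in the TAM libraries. It was 319.0, 337.1 and 342.7 CPM in M1 and 369.1, 345.6 and 346.3 CPM in M2. The 3 TAM libraries lay far below all 9 others, and the M0 and M1 ranges overlapped. Srebf2 fell by 1.90 on the log2 scale in TAM versus M0 (SE 0.09, adjusted p = 5.29e-08), a 3.72-fold fall. It fell by 1.89 against M1 and by 1.97 against M2. In M1 versus M0 the log2 change was −0.01 ± 0.08 (SE, adjusted p = 0.9504), and in M2 versus M0 0.08 ± 0.08 (adjusted p = 0.598).

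Srebf1, whose products drive fatty acid synthesis more than cholesterol synthesis, lies on chromosome 11 (60199089 to 60222581, minus strand). Its level was 227.1, 185.3 and 185.5 CPM in M0 and 53.4, 55.3 and 55.9 CPM in TAM. It was 144.9, 159.9 and 163.8 CPM in M1 and 193.1, 182.3 and 181.2 CPM in M2. TAM was the lowest group and M1 the next lowest, without overlap between them or with M0. The fall in TAM versus M0 was 1.86 on the log2 scale (SE 0.10, adjusted p = 1.92e-07), or 3.63-fold. Rai1, on the opposite strand, shares 109 bases of exon with Srebf1 and moved the other way, by 1.19 on the log2 scale in TAM versus M0 (adjusted p = 0.000702). Reads in the shared bases cannot be assigned without a stated strand.

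Scap, the sterol-sensing escort, is on chromosome 9 (110333288 to 110384950, plus strand). It stood at 112.9, 92.9 and 89.3 CPM in M0 and at 48.6, 50.8 and 49.4 CPM in TAM. The M1 libraries held 93.3, 98.5 and 100.1 CPM and the M2 libraries 94.0, 92.2 and 93.9 CPM, within the M0 range. Scap fell by 0.99 in TAM versus M0 (SE 0.10, adjusted p = 1.19e-05), a smaller log2 change than that of Srebf1 or Srebf2. Its log2 change was −0.97 against M1 and −0.91 against M2. An antisense transcript, 5830462I19Rik, shares 985 bases of exon with Scap and reached at most 0.273 CPM in any library.

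Insig1 and Insig2 encode the pair of proteins that hold SCAP in the endoplasmic reticulum, and they moved differently. Insig1, itself a classical SREBP target, is on chromosome 5 (28071363 to 28078662, plus strand). It stood at 126.1, 187.9 and 189.4 CPM in M0, 100.4, 122.1 and 110.7 CPM in M1, 190.8, 187.8 and 186.4 CPM in M2, and 23.7, 23.9 and 24.9 CPM in TAM. TAM lay lowest, M1 next, and both were clear of M2. Insig1 had the largest fall of the 9 genes in TAM versus M0, 2.80 on the log2 scale (SE 0.16, adjusted p = 2.02e-07), or 6.95-fold, with place 376 of 14591 by size of change. M0 replicate 1 held less Insig1 than the other M0 libraries, and without it the fall was 7.84-fold.

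Insig2 is on chromosome 1 (121304353 to 121332589, minus strand). It stood at 56.6, 70.2 and 66.8 CPM in M0 and at 63.4, 63.3 and 65.2 CPM in TAM, inside the M0 range. In M2 it was 63.6, 69.0 and 67.6 CPM, and in M1 51.3, 47.5 and 48.5 CPM, the lowest group. Its log2 change in TAM versus M0 was −0.01 ± 0.09 (SE, adjusted p = 0.926), or −0.10 ± 0.06 without M0 replicate 1 (adjusted p = 0.115). To compare genes, levels were also taken per kb of exon, merged over all annotated transcripts. On that scale Insig1 stood at 2.90 ± 0.354 times Insig2 in M0 (SD, n = 3) and 2.55 ± 0.343 in M1. The ratio was 3.18 ± 0.171 in M2 and 0.424 ± 0.00429 in TAM. Per kb, Insig1 was the more abundant of the pair in every M0, M1 and M2 library and the less abundant in every TAM library. Which transcripts were in use was not tested, so comparisons between genes are approximate.

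**Figure D1:**
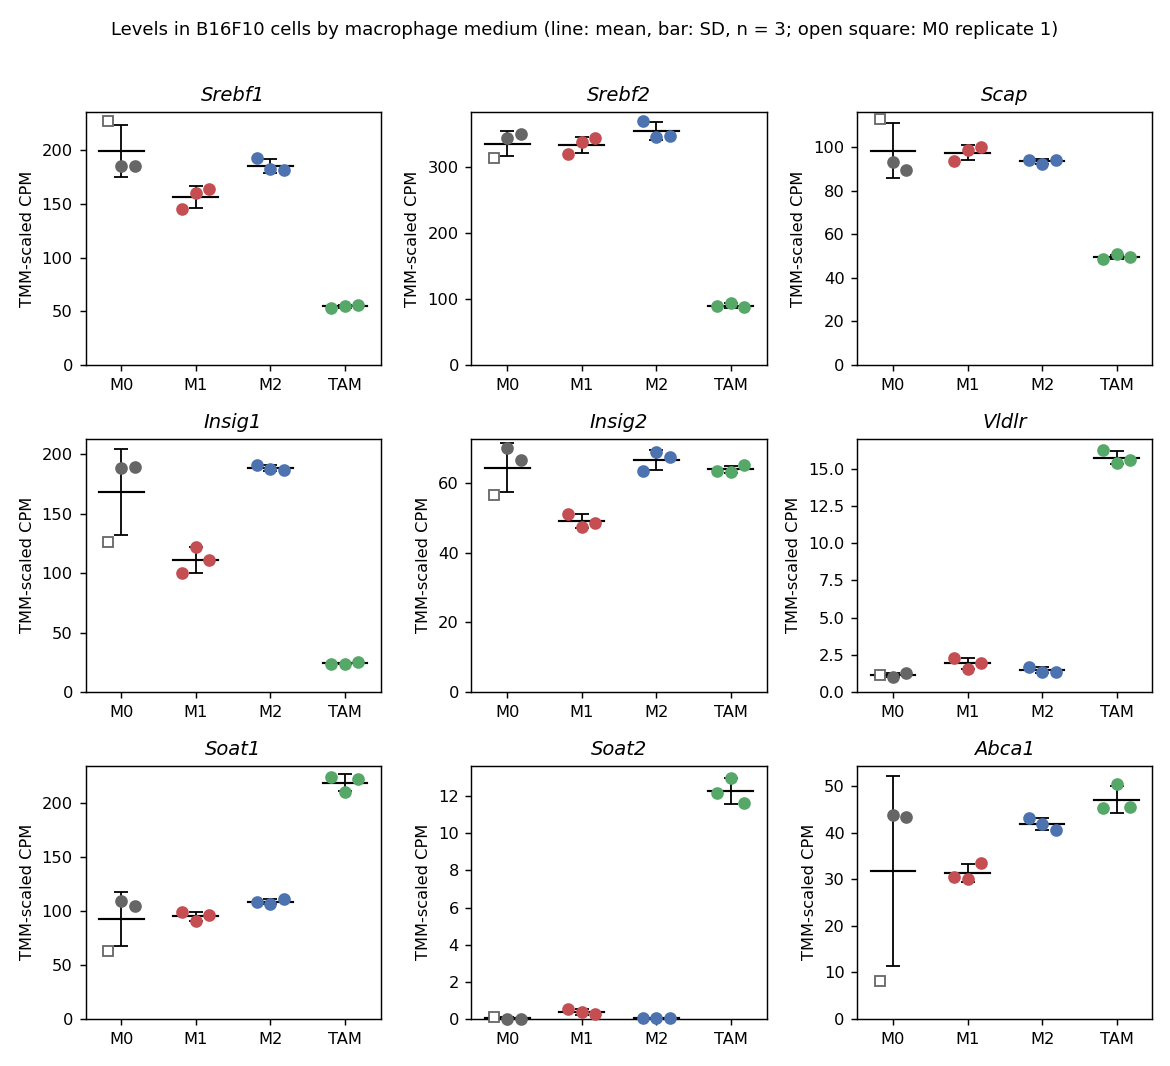
Level of each of the 9 genes in TMM-scaled CPM (vertical axis, from 0) in the 4 groups (horizontal axis). Points are libraries, lines group means, bars the SD of 3 libraries, and the open square is M0 replicate 1. The 3 TAM points lie below all others for Srebf1, Srebf2, Scap and Insig1 and above all others for Vldlr, Soat1 and Soat2, and the Abca1 value of M0 replicate 1, 8.19 CPM, lies apart.

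Vldlr, the receptor gene for triglyceride-rich lipoproteins, is on chromosome 19 (27216484 to 27254231, plus strand). It was scarce outside TAM, at 1.11, 1.00 and 1.25 CPM in M0, 2.29, 1.57 and 1.93 CPM in M1, and 1.69, 1.34 and 1.37 CPM in M2. These levels rested on 16 to 44 counts per library. In TAM it reached 16.3, 15.4 and 15.6 CPM, from 309 to 311 counts, above every other library. The rise in TAM versus M0 was 3.80 on the log2 scale (SE 0.17, adjusted p = 4.35e-08), or 13.9-fold. It was 8.10-fold against M1 and 10.7-fold against M2.

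Soat1 encodes the sterol esterification enzyme found in most tissues and is on chromosome 1 (156424525 to 156474331, minus strand). It stood at 63.3, 109.3 and 104.7 CPM in M0, 98.7, 90.4 and 96.0 CPM in M1, and 108.4, 105.9 and 110.8 CPM in M2. In TAM it was 224.1, 210.0 and 221.9 CPM, the highest in the set. Soat1 rose by 1.24 on the log2 scale in TAM versus M0 (SE 0.17, adjusted p = 0.000128), or 2.37-fold. Leaving out M0 replicate 1, which held the lowest level, the rise was 2.04-fold (adjusted p = 1.43e-25).

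Soat2, whose enzyme is best known from liver and intestine, is on chromosome 15 (102150526 to 102163469, plus strand). It had 2, 0 and 0 counts in the M0 libraries, 1 count in each M2 library, 10, 6 and 5 in M1, and 233, 261 and 232 in TAM. The TAM level was 12.2, 13.0 and 11.6 CPM, while no M1 library exceeded 0.521 CPM. From the summed counts, TAM held 336 times as much Soat2 as M0, with a 95% counting interval from 92.8 to 2783. It held 237 times as much as M2 (80.8 to 1153) and 33.1 times as much as M1 (21.5 to 53.8). These intervals are exact conditional binomial ones and cover counting error only. The 2 M0 counts were both in replicate 1. Without that library M0 had 0 counts, and TAM was at least 151-fold higher against a floor of 3 counts over the other M0 libraries. Igfbp6, which ends 1015 bp before Soat2 on the same strand, stood at 2.69 to 3.19 CPM in TAM and at 0.815 to 1.73 CPM in M0. Its part in the Soat2 counts was not tested.

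Abca1 encodes the transporter that passes cholesterol to apolipoproteins and is on chromosome 4 (53030787 to 53159895, minus strand). It stood at 8.19, 43.9 and 43.3 CPM in M0, 30.6, 30.04 and 33.5 CPM in M1, 43.1, 41.9 and 40.6 CPM in M2, and 45.4, 50.5 and 45.5 CPM in TAM. M0 replicate 1 lay far below the other 11 libraries, which ranged from 30.04 to 50.5 CPM. With it, Abca1 passed the test in none of the 6 comparisons between groups, and TAM versus M0 gave 0.57 ± 0.43 (SE, adjusted p = 0.291). Without it, TAM versus M0 gave 0.11 ± 0.07 (adjusted p = 0.159). In that fit Abca1 was lower in M1 than in M0 (log2 change −0.43 ± 0.07, adjusted p = 9.68e-07) and higher in TAM than in M1 (0.54 ± 0.06, adjusted p = 8.21e-11) and M2 (0.16 ± 0.06, adjusted p = 0.0180).

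The order of the 9 genes, taken per kb of exon, changed in TAM. In M0, Insig1 (54.3 ± 11.7 CPM per kb, SD, n = 3) and Srebf2 (46.6 ± 2.72) led and overlapped through M0 replicate 1 alone, where Insig1 stood at 40.8 and Srebf2 at 43.5. In the other M0 libraries Insig1 stood at 60.8 and 61.2 and Srebf2 at 47.8 and 48.6. They were followed without overlap by Srebf1, Insig2, Scap, Soat1, Abca1, Vldlr and Soat2. M2 had the same order as M0, and in M1 Srebf2 came before Insig1, with Vldlr and Soat2 overlapping at the bottom. In TAM, Soat1 led at 22.3 ± 0.777 CPM per kb, followed by Insig2 at 18.4 ± 0.314 and Srebf2 at 12.5 ± 0.480. Insig1 came after Srebf1 at 7.81 ± 0.202, and Soat2, last in M0, stood at 5.55 ± 0.309 and lay above Abca1 (4.55 ± 0.283) and Vldlr (1.56 ± 0.0450). No neighbours in the TAM order overlapped. Overlap here concerns the spread among libraries, not the exon length used. Soat1 exceeded Soat2 by 63.0 ± 22.7 times in M1 and by 4.04 ± 0.345 times in TAM. The ratio of Srebf2 to Srebf1 stayed between 1.08 and 1.73 in all libraries.

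**Figure D2:**
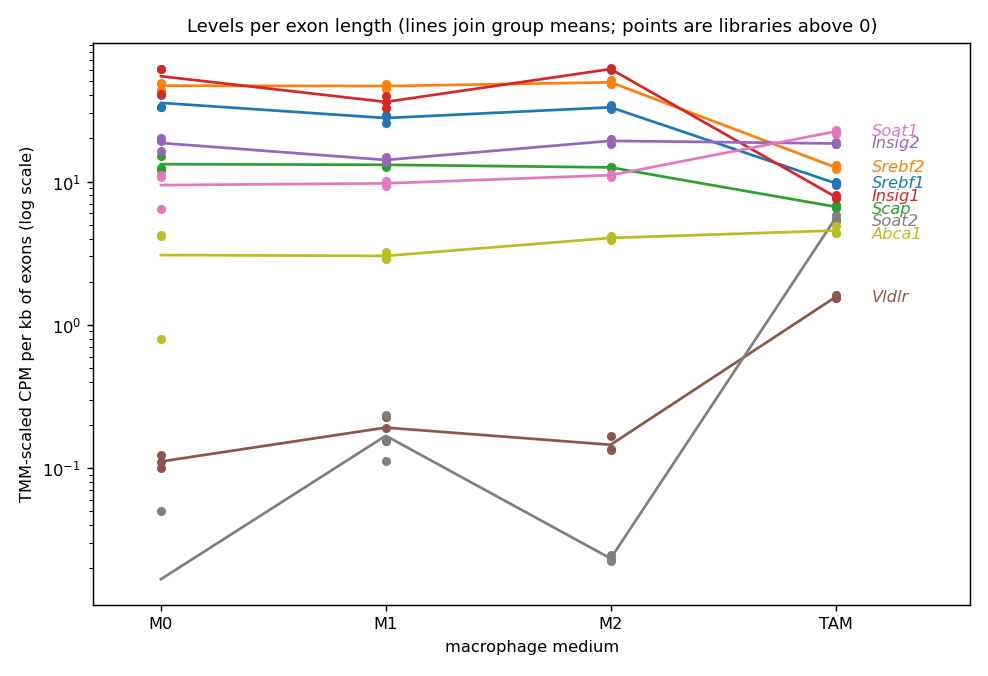
Level of the 9 genes per kb of merged exon (vertical axis, TMM-scaled CPM per kb, log scale) in the 4 groups (horizontal axis). Points are libraries above 0 and lines join group means. Insig1 drops from 54.3 in M0 to 7.81 in TAM, below Insig2, and Soat2 climbs above Abca1 and Vldlr.

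M1 medium gave mostly smaller changes than TAM medium. Srebf1, Insig1, Vldlr and Soat2 moved in the same direction as in TAM. Insig2 was called in M1 versus M0 and not in TAM versus M0. Against M0, Srebf1, Insig1 and Insig2 fell and Vldlr and Soat2 rose, 5 of 9 genes, where 25.7% of all tested genes were called (12.2% higher, 13.5% lower). Without Soat2, 1 of 8 rose and 3 fell. Insig1 fell by 0.60 on the log2 scale (SE 0.14, adjusted p = 0.0122), Insig2 by 0.39 (SE 0.09, adjusted p = 0.0110) and Srebf1 by 0.35 (SE 0.10, adjusted p = 0.0268). Vldlr rose by 0.78 (SE 0.18, adjusted p = 0.0104), from a mean of 1.12 ± 0.122 to 1.93 ± 0.362 CPM (SD, n = 3). Soat2 held 21 counts in M1 and 2 in M0, which makes M1 10.2 times as high, with counting bounds of 2.49 and 89.5 (adjusted p = 0.00634 in edgeR's test). Both M0 counts were in replicate 1, and against the floor of 3 counts over the other M0 libraries M1 was at least 4.56-fold higher. Against M2, whose libraries lay close together, M1 was lower in Insig1 (log2 change −0.76 ± 0.14, adjusted p = 0.00369) and Insig2 (−0.44 ± 0.09, adjusted p = 0.00721) and higher in Soat2 (adjusted p = 0.0112), 3 of 9 genes, where 17.2% of all tested genes were called (9.72% higher, 7.5% lower). Without Soat2, 0 of 8 were higher and 2 lower. With M0 replicate 1 left out, M1 versus M2 had 1 of 9 genes higher, again Soat2, and 5 lower, where 48.3% of all genes were called (24.8% higher, 23.5% lower). The genes added were Srebf1 (log2 change −0.22, adjusted p = 1.57e-05), Soat1 (−0.16, adjusted p = 0.00210) and Abca1 (−0.38, adjusted p = 1.32e-06).

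Most of the M1 calls changed with the libraries in the fit. Fitted with the 6 M0 and M1 libraries only, none of the 9 genes was called in M1 versus M0. In that fit 1282 of 13789 tested genes were called, against 3744 of 14591 with all 12 libraries. The adjusted p in edgeR's test was 0.162 for Insig1, 0.188 for Insig2, 0.243 for Srebf1 and 0.108 for Vldlr. Soat2 did not pass the filter there. Without M1 replicate 1 the adjusted p was 0.0641 for Insig1 and 0.0647 for Vldlr, and that of Soat2 in M1 versus M2 was 0.0508. That of Insig2 was 0.0525 without M1 replicate 2 and 0.0510 without M1 replicate 3. Srebf1 lost its call without any 1 of the M1 or TAM libraries (adjusted p = 0.0580 to 0.119). Without M0 replicate 1, 8 of 9 genes were called, 3 higher and 5 lower, where 47.1% of all genes were called (24.3% higher, 22.9% lower). Insig1, Insig2, Srebf1, Vldlr and Soat2 were called in the same direction in that fit, by −0.73, −0.44, −0.21 and 0.81 on the log2 scale for the first 4. Scap (0.14, adjusted p = 0.0245), Soat1 (−0.13, adjusted p = 0.0234) and Abca1 joined them. Scap and Soat1 had the opposite sign, −0.02 and 0.04, with all 12 libraries. The M1 values of Scap lay between 93.3 and 100.1 CPM and those of the other M0 libraries at 89.3 and 92.9.

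TAM and M1 medium shared the M0 libraries, so their changes are set side by side and not correlated. The direct comparison of TAM with M1 called 8 of 9 genes, 4 higher and 4 lower, where 43% of all tested genes were called (19.8% higher, 23.3% lower). Without Soat2, which passed the filter only through the TAM libraries, 3 of 8 were higher and 4 lower. Srebf1, Srebf2, Scap and Insig1 were lower in TAM than in M1, and Vldlr, Soat1, Soat2 and Insig2 higher. Insig2 was 1.30-fold higher (log2 change 0.38 ± 0.09, adjusted p = 0.00680), and lost the call without TAM replicate 3 (adjusted p = 0.0531). All 9 genes were called without M0 replicate 1, 5 higher, Soat2 among them, and 4 lower, where 70.1% of all genes were called (32.4% higher, 37.7% lower). Insig1 was 4.60-fold lower in TAM than in M1 (adjusted p = 7.32e-07), although M1 itself was lower than M0 and M2.

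M2 medium gave no called gene among the 9. In edgeR's test of M2 versus M0 the call rate over all genes was 0%, with 980 genes at an unadjusted p under 0.05 and 0 of the 9 among them. DESeq2 and limma-voom also called 0 of the 9, as did edgeR without M0 replicate 1, where 0.341% of all genes were called (0.207% higher, 0.134% lower). The largest log2 change in M2 among the genes above the detection floor was that of Abca1, 0.40 ± 0.43, and it became −0.05 ± 0.07 without M0 replicate 1. Vldlr differed by 0.38 ± 0.19 (adjusted p = 0.535). Soat2 was at or under the floor of 3 counts in both groups. TAM versus M2 called the 7 genes that TAM versus M0 called, in the same directions, where 43.2% of all tested genes were called (20.7% higher, 22.6% lower). Without Soat2, 2 of 8 were higher and 4 lower. The fit without M0 replicate 1 added Abca1, for 4 higher, Soat2 among them, and 4 lower of 9, where 69.5% of all genes were called (34.2% higher, 35.3% lower).

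**Figure D3:**
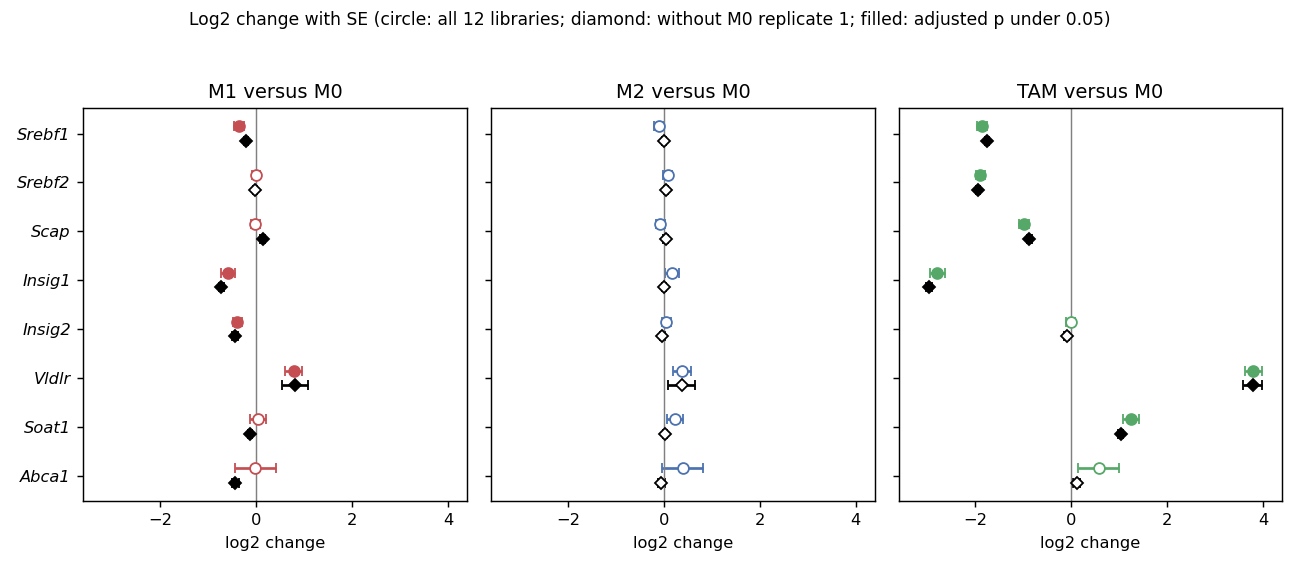
Log2 change with its SE (horizontal axis) of 8 genes in M1, M2 and TAM versus M0, with all 12 libraries (circles) and without M0 replicate 1 (diamonds), filled where the adjusted p was under 0.05. Soat2 is left out because M0 held 2 counts of it. The TAM changes of Srebf1, Srebf2, Scap, Insig1, Vldlr and Soat1 keep their direction in both fits, and all M2 symbols are open.

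Most enzymes of sterol and fatty acid synthesis, the genes that SREBPs switch on, were lower in TAM. The lists used here were drawn up from textbook roles with earlier results of these data known. All 20 tested enzymes of sterol synthesis fell, with a median log2 change of −2.12, where 27.2% of all tested genes were lower and the median over all genes was −0.02. Dhcr7 and Nsdhl, enzymes of the sterol arm, fell by 2.78 and 2.27 on the log2 scale, and Cyp51, the lanosterol demethylase, fell by 2.10. Among 12 enzymes of fatty acid synthesis 10 fell and 1 rose, with a median of −1.14 and 1 not called. Scd2, a fatty acid desaturase, went from 2974 ± 748 to 727.3 ± 7.75 CPM, Fasn, the fatty acid synthase, from 1245 ± 222 to 480.0 ± 19.7 CPM, and Fads2 and Acss2 fell by 1.29 and 1.10. In M1 versus M0, 2 sterol enzymes were higher and 1 lower, and 1 fatty acid enzyme was higher and 2 lower, where 12.2% of all tested genes were higher and 13.5% lower. Hsd17b7 (1.24 ± 0.31) and Hmgcs1 (0.33 ± 0.09) rose. When M0 replicate 1 was left out, 8 sterol enzymes were higher and 3 lower in M1, and 2 fatty acid enzymes higher and 7 lower, where 24.3% of all genes were higher and 22.9% lower.

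The partners that process or degrade SREBPs, SCAP and INSIGs were mixed. Of 14 genes 8 rose and 2 fell in TAM (median 0.44), where 23.3% of all tested genes were higher and 27.2% lower. Spring1, a factor needed for SREBP activation, rose from 33.9 ± 1.51 to 81.4 ± 3.10 CPM (log2 change 1.27 ± 0.09, adjusted p = 8.55e-07). Erlin1, which restrains SREBP activation in the endoplasmic reticulum, rose by 1.34 ± 0.14. Rnf145, a sterol-responsive ubiquitin ligase, fell by 1.26 (SE 0.14). In M1, 2 of the 14 rose and 1 fell, where 12.2% of all genes were higher and 13.5% lower. The fit without M0 replicate 1 had 4 higher and 3 lower, where the shares over all genes were 24.3% and 22.9%. Rnf139 rose by 0.79 ± 0.12, and Ube2g2, a ubiquitin-conjugating enzyme, fell by 0.42.

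LXR genes moved in both directions. Of 10 listed LXR receptors, partners and targets 7 were tested, and in TAM 2 rose and 4 fell (median −0.24), where 23.3% of all tested genes were higher and 27.2% lower. Rxra, the partner receptor, fell by 0.44 (SE 0.08), and Mylip, a ubiquitin ligase that degrades lipoprotein receptors, from 24.9 ± 7.06 to 15.5 ± 0.642 CPM. Pltp, a phospholipid transfer protein, rose by 0.82 ± 0.20 and Smpdl3a by 0.43 ± 0.10. Without M0 replicate 1, 8 were tested, with 4 higher and 4 lower, where 33% of all genes were higher and 33.7% lower. The median log2 change was then 0.12, opposite in sign to that with all 12 libraries. In M1, Pltp and Mylip rose (1.27 ± 0.20 and 0.90 ± 0.17) and Rxra fell by 0.66, where the shares over all genes were 12.2% higher and 13.5% lower, so that Mylip moved in opposite directions in M1 and TAM. Its level was 46.6 ± 2.13 CPM in M1, and TAM versus M1 gave a log2 change of −1.59 ± 0.18 (SE, adjusted p = 3.00e-05). Leaving out M0 replicate 1, M1 versus M0 had 5 of the 8 tested genes of the list higher and 1 lower. The shares over all genes were 24.3% and 22.9%.

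Among 15 lipoprotein receptor and sterol trafficking genes 14 were tested, and in TAM 3 rose and 6 fell (median −0.45), where 23.3% of all tested genes were higher and 27.2% lower. The fit without M0 replicate 1 had 4 higher and 10 lower, where the shares over all genes were 33% and 33.7%. Stard4, a cytosolic sterol carrier and SREBP target, fell from 48.7 ± 17.0 to 6.90 ± 1.23 CPM (log2 change −2.82 ± 0.25, adjusted p = 5.84e-06). Scarb1, the HDL receptor gene, fell by 1.42 (SE 0.14) and Lipa, the lysosomal enzyme that frees cholesterol from esters, by 0.73 (SE 0.11). Gramd1b, a carrier of cholesterol from the plasma membrane, rose from 56.6 ± 8.65 to 166.9 ± 3.78 CPM. In M1, Gramd1b (0.66 ± 0.11) and Nceh1, a cholesteryl ester hydrolase gene (1.31 ± 0.19), rose and 0 fell, where 12.2% of all genes were higher and 13.5% lower. Leaving out M0 replicate 1 gave 5 higher and 1 lower (Npc1, log2 change −0.39), where 24.3% of all genes were higher and 22.9% lower.

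**Figure D4:**
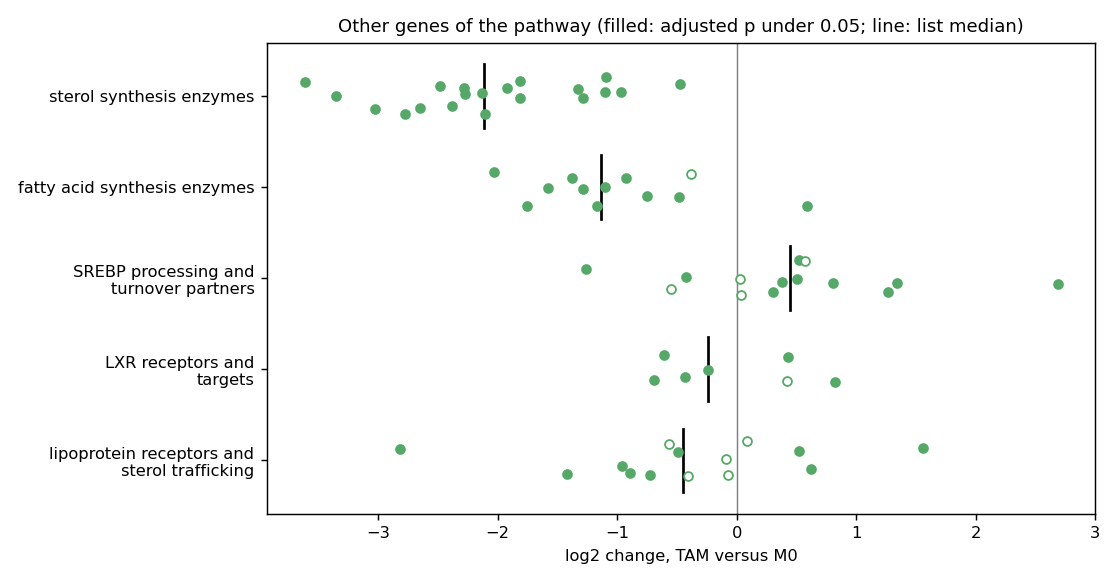
Log2 change in TAM versus M0 (horizontal axis) of each tested gene of 5 other lists of the pathway (rows), filled where the adjusted p was under 0.05, with the list median as a black line. All 20 sterol synthesis enzymes lie left of 0, with a median of −2.12, while the SREBP partner list has a median of 0.44.

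Genes whose log2 CPM followed each of the 9 most closely over the 12 libraries were taken from 12208 candidates, with Pearson's r as the measure. For Srebf2 they were Lss (r = 0.998), Melk and Cyp51. For Srebf1 they included Tk1 and Lig1 (r = 0.998), and for Insig1 Nono (r = 0.998), Bub1b and Exo1. Scap was followed by Def8, Tuba1a and Mc1r (r = 0.995 to 0.996). Vldlr was followed by Akna (r = 0.998), Cebpg and Acot2, Soat1 by Gclc (r = 0.998), Slc7a1 and Cdkn2aip, and Soat2 by Gadd45a (r = 0.997), Ypel5 and Zbtb7b. Abca1 was followed by Cdk13, Med23 and Dock3 (r = 0.994), and Insig2, with the loosest match, by Sned1 (r = 0.974), Igsf3 and Bcl7a. These values describe 4 groups that share libraries, with the TAM libraries far from the rest for most of the genes. Between 303 and 567 candidates had an r over 0.95 with each of the 9 genes other than Insig2, for which 6 had. Without M0 replicate 1 6 of the 27 closest genes stayed among the closest 3, among them Tk1 for Srebf1, Def8 for Scap, Akna for Vldlr, Gclc for Soat1 and Gadd45a for Soat2. All genes named for Srebf2, Insig1, Insig2 and Abca1 dropped out of the closest 3 in that setting.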

How the data were processed

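The deposited table held unnormalized whole-number read counts per Ensembl gene, with 1 column for each library. Per the submitters' processing notes the tools and build included HISAT2 2.0 and mm10. For the read counter, annotation and strand setting the sources used here give nothing. Columns were matched to samples by title, and groups came from the treatment labels. Symbols were found for 55141 of 55487 identifiers, and coordinates and exon lengths came from GENCODE M21 (mm10).

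The tests used edgeR 4.0.16 (R 4.3.3), with filterByExpr by group, TMM scaling, and 1 robust quasi-likelihood fit of all 12 libraries with a mean per group. Each of 6 comparisons was adjusted by Benjamini-Hochberg over 14591 genes, and called at 0.05. SEs are the log2 change divided by the square root of F. Levels are TMM-scaled CPM with the SD of 3 libraries, and marker sums are CPM of library totals. DESeq2 1.42.0, limma 3.58.1 (voom), other scalings, no filter, a replicate block and leaving out each library were alternatives. The fit was tested on simulated data.

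The 9 genes, the lists and the tests were chosen with earlier results of these data known. Named genes were the 9, up to 4 called genes per pathway list with the smallest adjusted p in M1 or TAM versus M0, and the 3 genes of most similar pattern. A few genes picked by this rule are left out of the text. Intervals and floors cover counting error only, because without molecular identifiers several reads can come from 1 molecule.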

Additional observations from a re-analysis of the deposited data

How the results depend on the processing

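The number of the 9 genes called in TAM versus M0 was 7 in every setting tried, Soat2 among them. Over all genes 7372 of 14591 were called with all 12 libraries and 6904 of 27593 with no filter. They were 4619 of 13868 with only the 2 groups compared and 9983 of 14968 without M0 replicate 1. In M2 versus M0, 0 of the 9 were called in every setting, and over all genes at most 51 of 14968. In M1 versus M0 the number of the 9 was 5 in the fit of all 12 libraries and 3 with no filter. It was 0 with only the 2 groups compared, and 2 to 8 when 1 library was left out. Over all genes these settings called 3744 of 14591, 2925 of 27593 and 1282 of 13789, and 2287 of 14952 to 7056 of 14968. In M1 versus M2 the number of the 9 was 3, 5 with only the 2 groups compared, and 2 to 6 when 1 library was left out. Over all genes these settings called 2512 of 14591, 6952 of 13800, and 1686 of 14952 to 7233 of 14968. The cause was not tested, except that fits without M0 replicate 1 had a common dispersion of 0.00166 against 0.0324. Same-numbered libraries showed little sign of pairing, with deviations correlated over 0.1 in 1 of 18 same-numbered pairs and in 3 of 36 other pairs. With 3 libraries per group this cannot show whether they share a batch, and the labels name none. With a replicate block Srebf1 lost its call in M1 versus M0 (−0.35, adjusted p = 0.0534), and no other call among the 9 genes changed. With no filter Srebf1 and Insig2 lost their M1 versus M0 calls, and Insig2 also its calls in TAM versus M1 and M1 versus M2.

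Changes close to 0 turned sign without being called. In M1 versus M0, Srebf2, Scap and Abca1 gave 0.0140, 0.00748 and 0.00642 with RLE factors, 0.0399, 0.0363 and 0.0242 with no filter, 0.0139, 0.00769 and 0.00645 with DESeq2, and 0.0333, 0.0289 and 0.0195 with only the 2 groups compared. Abca1 gave 0.33 with limma-voom and 0.10 with the replicate block, and Soat1 −0.00400 with upper-quartile factors. Insig2 in TAM versus M0 gave 0.00160 with RLE factors and 0.00189 with DESeq2. Leaving out 1 library at a time gave −0.0266 to 0.0335 for Srebf2, −0.0766 to 0.14 for Scap, −0.13 to 0.18 for Soat1 and −0.43 to 0.28 for Abca1 in M1 versus M0, and −0.10 to 0.0445 for Insig2 in TAM versus M0. In M2 versus M0 it gave −0.15 to 0.00781 for Srebf1, −0.14 to 0.0435 for Scap, −0.0292 to 0.11 for Insig2, −0.0507 to 0.69 for Abca1 and −0.17 to 3.15 for Soat2.

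In M1 versus M0 the called sterol enzymes numbered 3, or 1 with no filter, 0 with only the 2 groups and 1 to 11 with 1 library left out. For fatty acid enzymes these were 3, 1, 0 and 1 to 9. SREBP partners numbered 3, 1 with only the 2 groups and 2 to 7 with 1 library left out. LXR genes numbered 3 and 3 to 6, and receptor and trafficking genes 2 and 2 to 6. Over all genes 3744 of 14591 were called with all 12 libraries and 2925 of 27593 with no filter. Only the 2 groups gave 1282 of 13789, and 1 library left out gave 2287 of 14952 to 7056 of 14968. In TAM versus M0 SREBP partners numbered 10, or 6 with only the 2 groups, and LXR genes 6, or 2. Receptor and trafficking genes numbered 9, or 7 to 14 with 1 library left out. Over all genes 7372 of 14591 were called, or 4619 of 13868 with only the 2 groups. With 1 library left out the calls ran from 6107 of 14912 to 9983 of 14968. Depth limited Soat2 outside TAM and Vldlr in M0, which rested on 0 to 10 and 16 to 26 counts per library.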
